A study of Rattus norvegicus with 64 samples.

Results

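The Eph receptors, their ephrin ligands, the Slit ligands with their Robo receptors, and the netrins with the receptors Dcc and Unc5 were followed in the entorhinal cortex of the rat. Members were taken by gene symbol (Eph, Efn, Slit, Robo, Ntn, Ntng, Unc5, Dcc, and Draxin), and 35 of the 17260 genes in the count files met this rule. Of these, 34 passed the filter on low counts, while Epha1 did not, with 0 to 9 counts in a library. The members were 4 ephrin-A and 3 ephrin-B genes, 7 EphA and 4 EphB receptors, 3 Slit and 3 Robo genes, 4 netrins, 2 netrin-Gs, Dcc, and 4 Unc5 receptors. Draxin, Efna3, Epha6, Epha8, and Ephb4 were not among the genes in the files, so counts by family cover only the members found.

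Ephrins stay attached to the membrane of the cell that makes them, ephrin-As by a lipid anchor and ephrin-Bs by a membrane-spanning segment, and bind Eph receptor tyrosine kinases on a neighbouring cell, with signals running in both directions. Slits are secreted and mostly repel axons that carry Robo receptors, while netrins attract axons through Dcc and repel them through Unc5 receptors. In the cortex these families are known for guiding axons, placing migrating neurons, and shaping dendrites and synapses after birth.

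RNA depleted of ribosomal RNA was sequenced from Long Evans rats, an outbred strain, with no treatment named in the labels of any group. Medial (MEC) and lateral (LEC) entorhinal cortex were each divided into layer II (LII) and layers III to VI (LDeep), at postnatal day (P) 2, 9, 23, and 45, with 5, 4, 3, and 4 libraries in each region and layer. This gave 64 libraries in 16 groups, with 3894334 to 11439143 read pairs counted on genes in each (median 7569157.5). Layers were cut from brain slices under a microscope, so each library holds neurons, glia, and vessels together, and fewer cells of a type cannot be told apart from less RNA per cell. The study calls the libraries of a group biological replicates, but the labels do not tie them to animals, and p-values measure the spread between these libraries.

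Libraries were checked before the members were read. The second principal component separated LII from LDeep in 60 of 64 libraries. On the far side, or at the border, lay MEC LII P2 replicates 1 and 3, MEC LDeep P2 replicate 1, and MEC LII P45 replicate 4. The library labelled MEC LII P2 replicate 1 held 6 counts of Slc17a7, the vesicular glutamate transporter of cortical excitatory neurons, against 1663 to 18701 in the other 63 libraries, so its contents go against its label. It held 0 counts of the meningeal gene Lum and 4326 counts of Zic1, and was the lowest of its group for 17 of 35 members (median difference from the group median -0.50 log2). Without it the members called between regions numbered 11 in LII and 12 in LDeep, and those called between layers 19 in MEC and 17 in LEC, against 12, 11, 19, and 16 with it. MEC LII P2 replicate 3 held 9 counts of Lum and 963 counts of Ntn1. It held 375 counts of the deep-layer gene Fezf2, against 15 to 91 in the rest of its group. MEC LDeep P2 replicate 1 held 159 counts of Lum, against 0 to 3 in the rest of its group. Its Fezf2 was at 169 counts against 376 to 670, and its Reln at 5025 against 1484 to 2286. The contents of both libraries thus also lean against their labels. For the members, LEC LDeep P45 replicate 4 also stood apart, since it was the highest library of its group for 27 of 35 members, at 4922946 read pairs against 8136254 to 10625572 in the other 3. Where a named result lost its call without 1 of these libraries, this is stated below. Other values include these libraries unless stated.

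Levels are given as log2 CPM, read pairs per gene scaled to a common library size with TMM factors. Differences are log2 fold changes (LFC) with their standard error (SE), and a member was called where the Benjamini-Hochberg (BH) adjusted p of edgeR's quasi-likelihood test over 12521 genes was below 0.05. Per kilobase of exon, the highest mean levels over all libraries belonged to Epha4 with 60.4 CPM, Efnb3 with 53.8, Epha5 with 49.8, and Robo2 with 43.8. The lowest were Epha1 with 0.0565, Robo3 with 0.326, Ntn5 with 0.343, and Epha2 with 1.12 CPM per kilobase. The ligands Efna5 (885 counts over all libraries) and Efna4 (1961 counts) were also scarce, and a single count stood for 0.0874 to 0.257 CPM, so values of these genes carry a large counting error.

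The members called between the regions in both layers, described below, were Epha4, Ephb1, Ephb2, and Ephb6, higher in MEC, and Unc5d and the ephrin-Bs, higher in LEC. The bases before the start of 4 of these genes are shown here, 2 from each side, taken from RefSeq on the build GRCr8, which is not the build (rn6) of the counts. Of the 35 members, 28 had a promoter in that table, and Efnb3, Epha4, Slit1, Slit2, Ntn1, Unc5c, and Unc5d were not matched. Each line holds 250 bases, 5′ to 3′ on the strand of the gene, up to but without the start. Capitals mark the CCAAT box (CCAAT or ATTGG) and the E-box CAGCTG, which reads the same on both strands. Ephb6 lies at chr4:71458382-71458631 (plus strand), Ephb1 at chr8:111823760-111824009 (minus strand), Efnb1 at chrX:68297279-68297528 (plus strand), and Efnb2 at chr16:87484965-87485214 (plus strand).
Ephb6: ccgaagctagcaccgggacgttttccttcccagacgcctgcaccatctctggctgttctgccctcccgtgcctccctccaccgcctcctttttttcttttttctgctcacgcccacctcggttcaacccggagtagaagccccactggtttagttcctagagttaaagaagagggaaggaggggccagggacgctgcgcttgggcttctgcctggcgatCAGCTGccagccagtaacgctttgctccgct
Ephb1: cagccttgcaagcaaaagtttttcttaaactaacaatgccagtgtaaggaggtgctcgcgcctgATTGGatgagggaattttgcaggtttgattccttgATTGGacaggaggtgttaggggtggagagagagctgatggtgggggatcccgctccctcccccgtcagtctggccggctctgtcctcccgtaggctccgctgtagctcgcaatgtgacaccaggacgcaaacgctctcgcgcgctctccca
Efnb1: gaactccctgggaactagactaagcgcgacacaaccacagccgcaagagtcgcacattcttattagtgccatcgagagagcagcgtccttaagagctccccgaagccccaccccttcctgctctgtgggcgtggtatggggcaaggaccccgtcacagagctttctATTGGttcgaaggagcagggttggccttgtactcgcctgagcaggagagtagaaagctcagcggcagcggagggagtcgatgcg
Efnb2: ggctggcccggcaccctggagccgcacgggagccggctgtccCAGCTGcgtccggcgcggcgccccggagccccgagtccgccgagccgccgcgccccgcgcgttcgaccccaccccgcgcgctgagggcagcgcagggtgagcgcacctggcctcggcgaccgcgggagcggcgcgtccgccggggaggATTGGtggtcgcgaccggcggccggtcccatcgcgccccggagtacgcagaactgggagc
Ephb6 held 1 E-box and no CCAAT box, Ephb1 held 2 CCAAT boxes, Efnb1 held 1 CCAAT box, and Efnb2 held 1 of each. Of all 33469 promoters in the table, 34.0% held a CCAAT box and 12% this E-box. Over the 29 member promoters (Robo1 has 2), 11 held a CCAAT box and 5 the E-box, while 13 held the GC box GGGCGG or CCGCCC (30.5% of all promoters) and none held TATAAA or TTTATA (12.9% of all). A homeodomain core, TAATTA, was found in 1 (4.86% of all) and a cAMP response element, TGACGTCA, in 1 (1.59% of all). The share of G and C was 80.4% before Efnb2, 59.2% before Ephb6, 58.4% before Efnb1, and 56.4% before Ephb1, against a median of 62.8% over the members and 51.2% over all promoters.

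To compare the regions, MEC was set against LEC within each layer, with the 4 ages weighted equally. Eph receptors that differed were higher in MEC, and all 3 ephrin-Bs were higher in LEC, in both layers. In LII, 12 of 34 members were called, 8 higher in MEC and 4 higher in LEC, where 12.6% of all genes tested were called. In LDeep, 11 of 34 members were called, 5 higher in MEC and 6 higher in LEC, against 5.78% of all genes. Without the 4 libraries on the far side of the second component the counts were also 12 and 11, and without LEC LDeep P45 replicate 4 they were 12 and 9. The median absolute LFC of the members was 0.27 in LII and 0.23 in LDeep, against 0.12 and 0.08 over all genes. Of the members called, 8 were called in both layers, all with the same sign. These are 66.7% of those called in LII and 72.7% of those in LDeep. The same overlap over all genes was not counted, so it is not read as particular to the members.

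**Figure D1:**
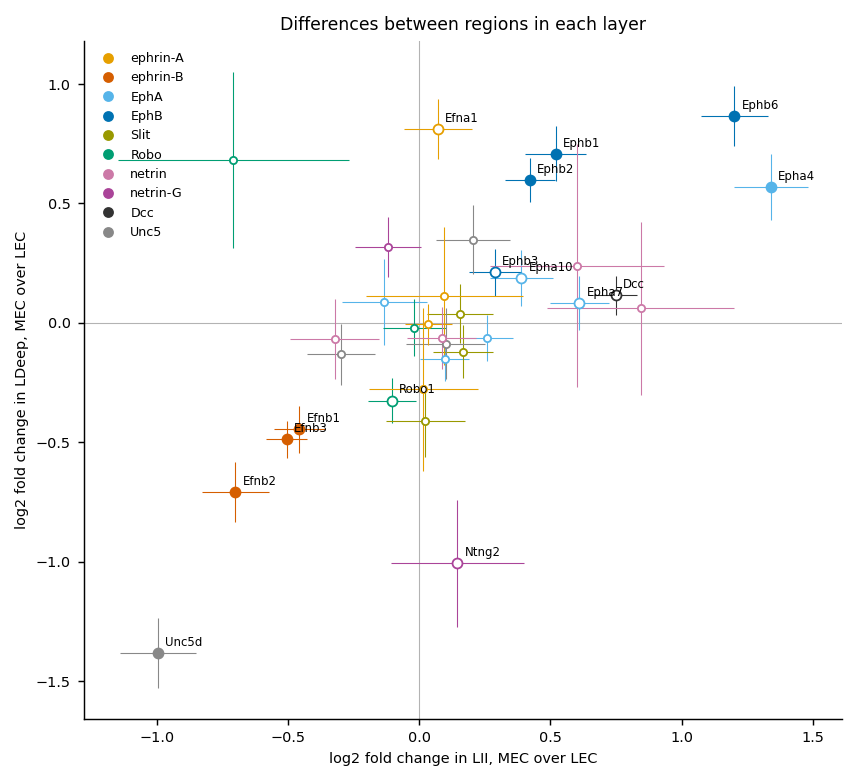
Difference between MEC and LEC for the 34 members tested, as log2 fold change (MEC over LEC) in LII on the horizontal and in LDeep on the vertical axis. Bars are standard errors, filled points were called in both layers, and open points with a name were called in 1 layer. The filled EphB and Epha4 points lie at the upper right, from 0.42 to 1.34 in LII, and the filled ephrin-B points at the lower left, from -0.70 to -0.46.

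Among the ligands, the ephrin-Bs stood together. Efnb2 (chromosome 16 of rn6, 86631151 to 86672050) ranged from 3.57 to 6.77 log2 CPM in the 16 MEC LII libraries (median 4.36) and from 3.86 to 6.87 in the 16 LEC LII libraries (median 5.39). Much of this range came from the ages, and within an age the LEC libraries were all above the MEC libraries at 2 of 4 ages in LII. In LDeep the medians were 4.31 in MEC and 5.39 in LEC, and the libraries did not overlap at 3 of 4 ages. The LFC of Efnb2 was -0.70 in LII (SE 0.13, adjusted p 5.6e-05) and -0.71 in LDeep (SE 0.12, adjusted p 6.1e-05). At P9 the 4 MEC LII libraries read 4.57, 4.43, 4.50, and 4.66, and the 4 LEC LII libraries 5.67, 5.64, 5.14, and 6.02. All 4 LEC values were above all 4 MEC values there.

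Efnb3 (chromosome 10 of rn6, 56161431 to 56167396) had medians of 7.38 in MEC LII and 7.47 in LEC LII, with ranges of 4.89 to 8.13 and 6.02 to 8.25. The medians hide the ages, since at P2 the means of both regions in LII were 7.98 (SD 0.14, n = 5) and 7.90 (SD 0.26, n = 5), while at P23 they were 5.24 (SD 0.15, n = 3) and 6.36 (SD 0.13, n = 3). The LFC over all ages was -0.50 in LII (SE 0.08, adjusted p 3.7e-06) and -0.49 in LDeep (SE 0.08, adjusted p 1.0e-05). The libraries of Efnb3 did not overlap at 2 ages in LII, P23 and P45, and at 3 ages in LDeep. Efnb1 (chromosome X of rn6, 68891227 to 68904034) ranged from 3.27 to 5.98 in MEC LII and from 4.52 to 6.45 in LEC LII. Its LFC was -0.46 in LII (SE 0.10, adjusted p 0.00069) and -0.45 in LDeep (SE 0.10, adjusted p 0.0021). No ephrin-A was called in LII. In LDeep, Efna1 was higher in MEC, as described below with its layer difference.

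Of the 10 Eph receptors tested, 7 were higher in MEC in LII and 4 in LDeep, and none was higher in LEC. Ephb6 (chromosome 4 of rn6, 70903253 to 70918514), a receptor whose kinase domain is inactive, ranged from 6.07 to 7.99 log2 CPM in MEC LII (median 7.43) and from 4.79 to 6.91 in LEC LII (median 6.18). At each of the 4 ages every MEC LII library was above every LEC LII library. In LDeep the medians were 7.96 in MEC and 7.01 in LEC, and the groups did not overlap at 3 of 4 ages. The LFC was 1.20 in LII (SE 0.13, adjusted p 4.3e-10) and 0.86 in LDeep (SE 0.13, adjusted p 1.8e-06). The libraries labelled MEC LII P2 replicates 1 and 3, which lay on the far side of the second component, had the lowest Ephb6 of their group, 6.07 and 6.4 against 7.29 to 7.68 in the other 3. With any 1 library left out, the LFC in LII was 1.15 to 1.25.

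Epha4 (chromosome 9 of rn6, 83111223 to 83253458), which binds ephrins of both classes, ranged from 6.88 to 10.03 in MEC LII (median 9.44) and from 6.03 to 9.07 in LEC LII (median 7.96). The groups did not overlap at any of the 4 ages in LII. At P9 the MEC LII libraries read 9.32, 9.42, 9.58, and 9.27 and the LEC LII libraries 6.59, 7.79, 8.13, and 7.34. The lowest MEC library was thus above the highest LEC library by more than the range of the MEC group, but by less than that of the LEC group. In LDeep the groups did not overlap at 2 of 4 ages, and at P2 the means were 7.24 in MEC (SD 0.44) and 7.26 in LEC (SD 0.32). The LFC was 1.34 in LII (SE 0.14, adjusted p 3.3e-10) and 0.57 in LDeep (SE 0.14, adjusted p 0.0057).

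Ephb1 and Ephb2, EphB receptors with an active kinase, had smaller differences than Ephb6 in both layers and than Epha4 in LII. In LDeep their LFCs were above that of Epha4. Ephb1 ranged from 5.69 to 7.63 in MEC LDeep (median 6.12) and from 4.94 to 6.47 in LEC LDeep (median 5.61), and its groups did not overlap at 2 of 4 ages. Its LFC was 0.71 in LDeep (SE 0.12, adjusted p 1.7e-05) and 0.52 in LII (SE 0.12, adjusted p 0.0011). Ephb2 had an LFC of 0.60 in LDeep (SE 0.09, adjusted p 5.7e-06), with no overlap at 3 of 4 ages, and 0.42 in LII (SE 0.09, adjusted p 0.0012). Epha7 was called in LII with an LFC of 0.61 (SE 0.11, adjusted p 7.3e-05), where its groups did not overlap at 3 of 4 ages, and its LFC in LDeep was 0.08 (adjusted p 0.83). Epha10 and Ephb3 were the other receptors called in LII, with LFCs of 0.39 and 0.29. Epha2, Epha3, and Epha5 were not called in either layer.

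**Figure D2:**
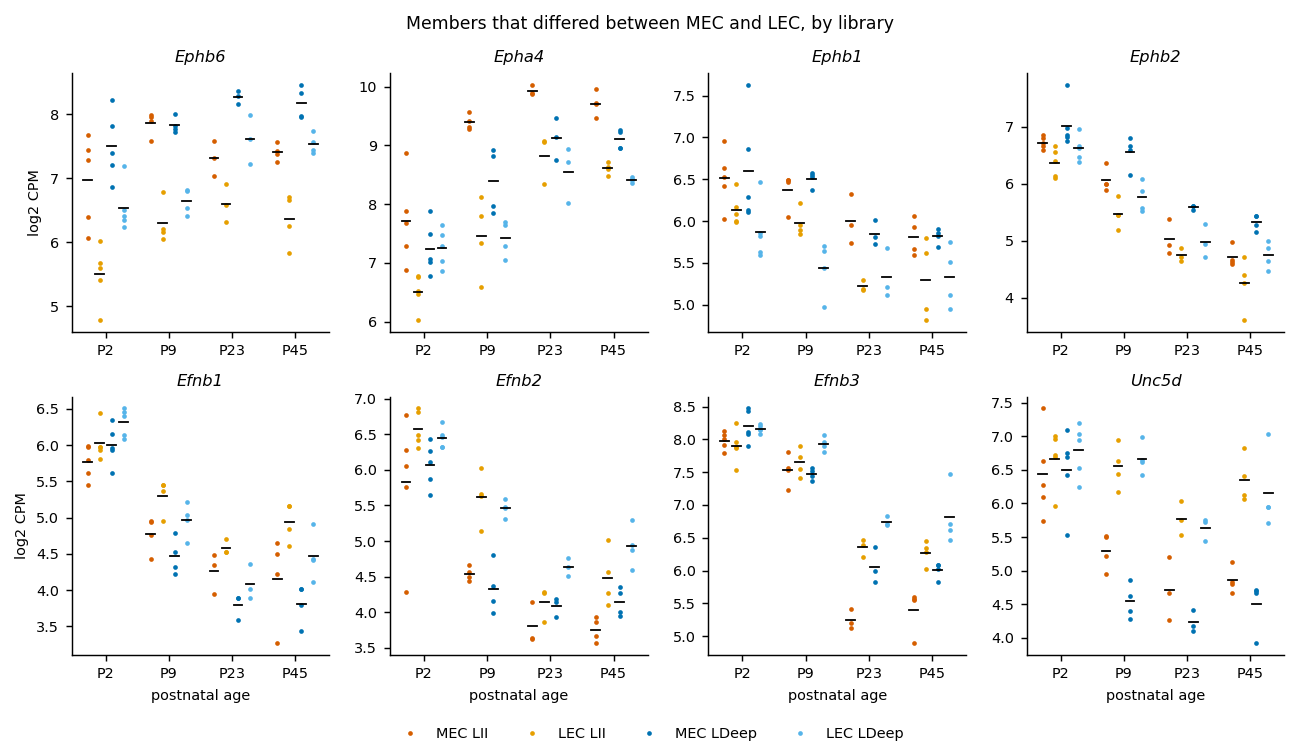
Level in log2 CPM of 8 members in every library, by postnatal age, region, and layer. Points are libraries (3 to 5 in each group) and short lines are group means. In LII, MEC points of Ephb6 and Epha4 lie above LEC points at every age, and for Unc5d the MEC points lie below the LEC points from P9.

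Among receptors of netrins, Unc5d showed the largest difference between the regions of all members in LDeep. Unc5d (chromosome 16 of rn6, 67048092 to 67595213) ranged from 3.92 to 7.09 log2 CPM in MEC LDeep (median 4.68) and from 5.44 to 7.19 in LEC LDeep (median 6.48). At P9, P23, and P45 every LEC library was above every MEC library of its age, in LII and in LDeep, and at P2 the groups overlapped. At P9 the MEC LDeep libraries read 4.63, 4.28, 4.40, and 4.86, and the LEC LDeep libraries 6.61, 6.42, 6.99, and 6.65. The LFC was -1.38 in LDeep (SE 0.15, adjusted p 9.4e-10) and -1.0 in LII (SE 0.14, adjusted p 7.3e-07). Dcc, which binds netrin-1, was called in LII with an LFC of 0.75 (SE 0.08, adjusted p 7.9e-10), with every MEC library above every LEC library at all 4 ages. In LDeep its LFC was 0.12 (SE 0.08, adjusted p 0.54).

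In LDeep, 2 calls did not hold when some single libraries were left out. Ntng2, a membrane-anchored netrin that does not use Dcc, had an LFC of -1.01 (SE 0.27, adjusted p 0.012), and Robo1 had an LFC of -0.33 (SE 0.09, adjusted p 0.023). The 4 LEC LDeep P45 libraries read 2.83, 3.21, 3.34, and 5.87 for Ntng2, the highest being replicate 4. Without it, the LFC of Ntng2 was -0.70 (adjusted p 0.061) and that of Robo1 -0.24 (adjusted p 0.079). Without LEC LDeep P23 replicate 2, Ntng2 was at -0.83 (adjusted p 0.068) and Robo1 at -0.29 (adjusted p 0.073). Robo1 also missed the threshold without LEC LDeep P9 replicate 4 (-0.29), LEC LDeep P23 replicate 1 (-0.32), or MEC LDeep P23 replicate 3 (-0.30). No Slit and no other Robo was called between the regions.

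Markers of other cell types were read beside the regions. Of 12 meningeal fibroblast markers and the 8 endothelial markers tested, 0 were called between the regions in edgeR's test in either layer. The median LFC of the meningeal markers was -0.33 in LII and 1.16 in LDeep. Their summed level in LDeep had a median of 160 CPM in MEC and 113 in LEC. The MEC libraries include MEC LDeep P2 replicate 1, with 159 counts of Lum, and no LFC of these markers was taken without it. Of 10 markers of the oligodendrocyte lineage, 4 were higher in MEC in LII and 3 in LDeep, with summed levels of 377 to 5371 CPM in MEC LII and 347 to 2144 in LEC LII. Of 6 markers each, 3 of inhibitory neurons (2 higher and 1 lower in MEC) and 2 of deep-layer neurons (lower in MEC) were called in LII. Also called in LII was 1 marker each of pericytes and smooth muscle, excitatory neurons, and LII neurons, higher in MEC. For microglia and immature neurons 1 marker each was lower in MEC in LII. In LDeep, 2 of immature neurons, 1 of LII neurons, and 1 of deep-layer neurons were lower in MEC. Their part in the differences of the members was not tested.

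A list of 46 other genes of these pathways (adaptors, kinases, exchange factors, and co-receptors) had 42 genes in the files, all of them tested. In LII, 11 were called between the regions, 7 higher in MEC and 4 higher in LEC (26.2% against 12.6% of all genes), and in LDeep 5 were called, 2 higher in MEC and 3 in LEC (11.9% against 5.78%). Lrrc4, a postsynaptic partner of netrin-G2, had an LFC of 0.47 in LII (SE 0.05). Tiam1, a Rac exchange factor that ephrin and Eph signals use, was higher in LEC in both layers. Its LFC was -0.53 in LII (SE 0.10, adjusted p 0.00016) and -0.32 in LDeep (SE 0.10, adjusted p 0.049, close to the threshold). Rasa1, a Ras-inhibiting protein that binds activated Eph receptors, was also higher in LEC in both. Its LFC was -0.21 in LII (SE 0.07, adjusted p 0.035) and -0.33 in LDeep (SE 0.07, adjusted p 0.00078).

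To follow development, P23/P45 was set against P2/P9 with regions and layers weighted equally. Of 34 members, 26 were called, 10 higher and 16 lower at P23/P45, where 81.6% of all genes tested were called. A call between the ages is thus what most genes showed, and the sizes of the changes say more. The median absolute LFC was 0.74 over the members and 0.46 over all genes. The test took all libraries as separate, though those of an age may share animals. With libraries of the same age and number summed, 12 of 12 named results kept their call. Of 7 ephrins 5 were lower and 1 higher, and of 10 Eph receptors 5 were lower and 3 higher. Over all genes, 40.6% were lower and 41% higher.

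**Figure D3:**
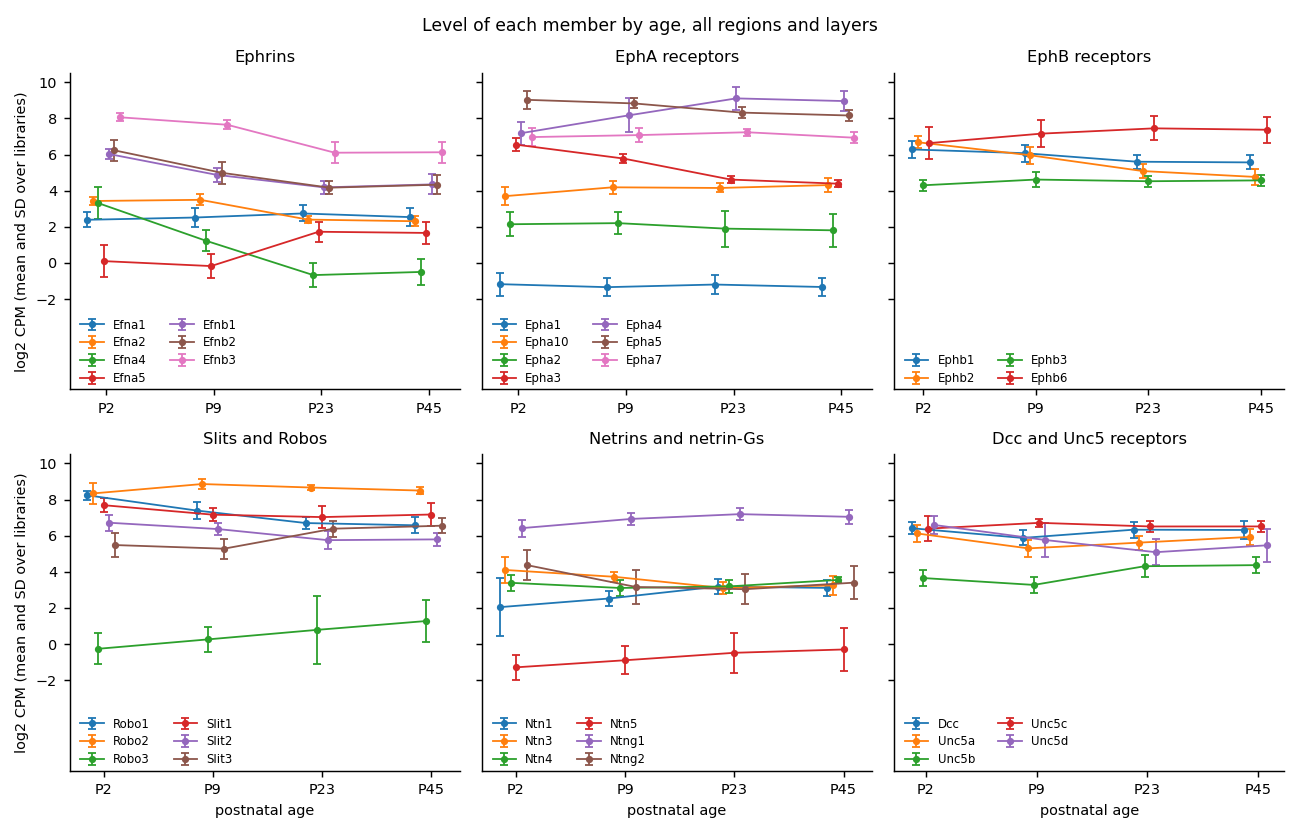
Mean level of each of the 35 members in log2 CPM at P2, P9, P23, and P45 over all regions and layers, with bars of 1 SD over 20, 16, 12, and 16 libraries. Efna4, the 3 ephrin-Bs, Epha3, Ephb2, and Robo1 fall with age, while Epha4 and Efna5 are higher from P23.

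The ligand with the largest change was Efna4 (chromosome 2 of rn6, 188655928 to 188660179). It ranged from -0.20 to 4.31 log2 CPM in the 36 libraries of P2/P9 (median 2.80) and from -1.91 to 0.72 in the 28 of P23/P45 (median -0.48). In 3 of the 4 combinations of region and layer no younger library overlapped an older one. The LFC was -3.44 (SE 0.20, adjusted p 1.5e-22). Efna5 went the other way, from a median of 0.03 (range -1.91 to 1.34) to 1.69 (range 0.71 to 3.05), with an LFC of 1.91 (SE 0.21, adjusted p 4.1e-12). The gene model of Efna5 holds 768 bases of exon, and no library had more than 48 counts. Efna2 fell, with an LFC of -1.15 (SE 0.06), and Efna1 was not called (LFC 0.15, adjusted p 0.11).

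All 3 ephrin-Bs fell. Efnb3 went from a median of 7.90 (range 7.23 to 8.47) at P2/P9 to 6.15 (range 4.89 to 7.48) at P23/P45, without overlap in any combination of region and layer, and its LFC was -1.74 (SE 0.06, adjusted p 3.0e-33). Efnb2 had an LFC of -1.40 (SE 0.09) and Efnb1 of -1.19 (SE 0.07). They differed in when they fell. From P2 to P9, Efnb2 and Efnb1 fell by 1.30 (SE 0.12) and 1.16 (SE 0.09) on the log2 scale and Efnb3 by 0.42 (SE 0.07), while from P9 to P23 Efnb3 fell by 1.55 (SE 0.09) and the others by 0.84 (SE 0.14) and 0.70 (SE 0.11).

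Among the receptors, Epha3 and Ephb2 fell and Epha4 rose. Epha3 went from a median of 6.17 (range 5.45 to 7.08) to 4.51 (range 3.90 to 4.93), with no overlap between younger and older libraries and an LFC of -1.69 (SE 0.07, adjusted p 1.3e-29). Ephb2 went from 6.51 (range 5.19 to 7.73) to 4.87 (range 3.62 to 5.61), and within each region and layer no younger library overlapped an older one (LFC -1.41, SE 0.07, adjusted p 5.0e-26). Epha4 went from 7.48 (range 6.03 to 9.58) to 8.96 (range 8.01 to 10.03), with overlap in 2 of the 4 combinations and an LFC of 1.31 (SE 0.10, adjusted p 5.5e-18). Robo1, a receptor of Slits, had an LFC of -1.18 (SE 0.07) and Unc5d of -0.92 (SE 0.10). Slit3 (1.08, SE 0.10) and Unc5b (0.89, SE 0.10) were higher at P23/P45, and Slit1 (-0.32, SE 0.09) and Slit2 (-0.78, SE 0.08) were lower. Robo3, a divergent Robo known from axons that cross the midline, had an LFC of 1.31 (SE 0.31, adjusted p 0.00017) at 0 to 127 counts in a library. Ntn5 was called as higher at P23/P45 with 0 to 18 counts, and without LEC LDeep P23 replicate 3 the adjusted p was 0.97.

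Calls were made in the steps up to P23. From P2 to P9, 24 of 34 members were called, 6 higher and 18 lower at P9, against 63.4% of all genes. From P9 to P23, 20 were called, 7 higher and 13 lower at P23, against 64.6%. From P23 to P45, edgeR called 0 of 34, against 3.85% of all genes, with 6 members at an unadjusted p below 0.05. DESeq2 and limma voom each called 1 in this last step. The closest was Ephb2, with an LFC of -0.33 (SE 0.10, adjusted p 0.052). Dcc and Unc5a fell and then rose, with LFCs of -0.54 (SE 0.08) to P9 and 0.46 (SE 0.09) to P23 for Dcc, and of -0.86 (SE 0.12) and 0.31 (SE 0.14) for Unc5a.

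Cell types changed over the same ages. All 6 markers of immature neurons were lower at P23/P45, with a summed level of 5985 to 14872 CPM in the libraries of P2/P9 and 1142 to 1652 in those of P23/P45. Of 8 markers of astrocytes 7 were higher and 1 was lower (824 to 4707 CPM summed at P2/P9, 4076 to 7613 at P23/P45). Of 10 markers of the oligodendrocyte lineage 6 were higher and 2 lower, and of 8 of microglia 7 were higher and 0 lower. Their part in the changes of the members was not tested. Of the 42 other pathway genes, 32 were called, 14 higher and 18 lower at P23/P45, which is 76.2% against 81.6% of all genes. Chn1, a Rac-inhibiting protein that acts after Epha4, had an LFC of 2.69 (SE 0.07), and Vav2, an exchange factor that binds Eph receptors, had one of -2.38 (SE 0.08).

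To compare the layers, LII was set against LDeep within each region. In MEC, 19 of 34 members were called, 12 higher in LII and 7 higher in LDeep, against 40.8% of all genes tested. In LEC, 16 were called, 5 higher in LII and 11 higher in LDeep, against 38.6% of all genes. The 4 libraries on the far side of the second component are all from MEC. Without them, 66 of 67 named results of all comparisons kept their call, and Ntn1 between layers in MEC reversed. The shares of members called were 55.9% in MEC and 47.1% in LEC, with a median absolute LFC of 0.34 in MEC and 0.27 in LEC against 0.18 and 0.17 over all genes. In both regions 9 members were called, all with the same sign. These are 47.4% of the members called in MEC and 56.2% of those in LEC. This overlap was not counted over all genes either, and it includes Ntn5, which passed the filter on low counts through LII libraries alone.

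**Figure D4:**
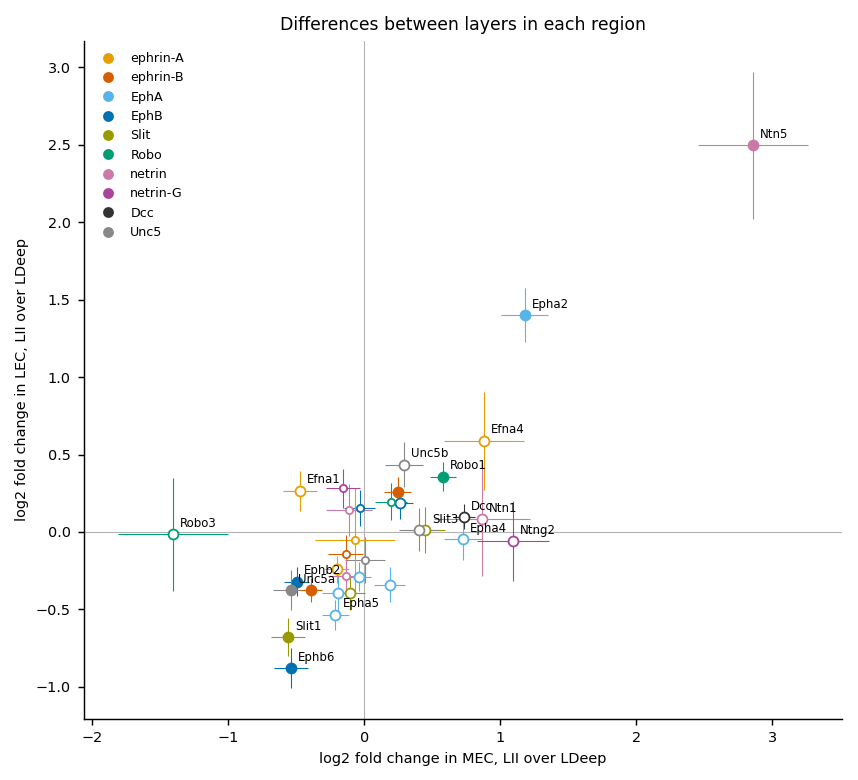
Difference between LII and LDeep for the 34 members tested, as log2 fold change (LII over LDeep) in MEC on the horizontal and in LEC on the vertical axis. Bars are standard errors, filled points were called in both regions, and open larger points in 1 region. Names are given to called members past 0.42 in either region. Epha2 and Ntn5 lie at the upper right, and Dcc, Epha4, and Ntng2 lie to the right, near 0 in LEC. Ntn5 passed the filter on low counts through LII libraries alone.

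Called as higher in LII in both regions were Epha2, Robo1, Efnb1, and Ntn5, with Efnb1 in LEC (LFC 0.26, adjusted p 0.034) no longer called without any 1 of 6 libraries (adjusted p 0.052 to 0.064). Epha2, an EphA receptor also known from epithelia and vessels, ranged from 2.03 to 3.30 log2 CPM in LEC LII (median 2.78) and from -0.54 to 2.19 in LEC LDeep (median 1.46), without overlap at any of the 4 ages. Its LFC was 1.4 in LEC (SE 0.17, adjusted p 2.3e-09) and 1.18 in MEC (SE 0.17, adjusted p 1.1e-07), at 3 to 61 counts in a library. Robo1 had an LFC of 0.58 in MEC (SE 0.09, adjusted p 1.2e-06) and 0.36 in LEC (SE 0.09, adjusted p 0.0016). Ntn5 held at most 3 counts in any LDeep library and 0 to 18 in LII libraries (adjusted p 8.0e-08 in MEC and 2.4e-05 in LEC), so no fold is given. With so few counts in LDeep, Ntn5 passed the filter through LII libraries alone, the side where it was then called higher. Its calls are thus not read as a layer difference.

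Markers of the meninges and vessels were also higher in LII. The 12 meningeal fibroblast markers summed to 32 to 1718 CPM in MEC LII (median 1081) and 52.9 to 1150.2 in MEC LDeep (median 160). In LEC they summed to 818 to 1732 in LII (median 1254) and 30.6 to 263 in LDeep (median 113). Of the 12, 11 were higher in LII in each region and 1 was lower in MEC. The MEC LDeep libraries include P2 replicate 1, with 159 counts of Lum. All 8 markers of endothelial cells tested were higher in LII in both regions, as were 7 of 8 of astrocytes in MEC and 5 of 8 in LEC. Higher in LDeep were 7 of 10 markers of the oligodendrocyte lineage in MEC and 6 of 10 in LEC, with 1 higher in LII in each region. Of deep-layer neurons, 6 of 6 markers in MEC and 5 of 6 in LEC were higher in LDeep. Their part in the layer differences of the members, in either direction, was not tested. Of the MEC LII P2 libraries, replicate 1, with 0 counts of Lum, had an Epha2 level of 1.47, and replicate 3, with 9 counts, had 2.43, while the other 3, with 170 to 243 counts, had 2.44 to 2.93.

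Higher in LDeep in both regions were Slit1, Ephb6, Ephb2, Efnb3, and Unc5a. Slit1, a secreted repellent, ranged from 6.11 to 7.54 in LEC LII (median 6.95) and from 6.89 to 8.75 in LEC LDeep (median 7.51). The groups of Slit1 did not overlap at 1 of 4 ages in LEC and 2 of 4 in MEC. The LFC was -0.68 in LEC (SE 0.12, adjusted p 1.3e-05) and -0.56 in MEC (SE 0.12, adjusted p 0.00021). Ephb6 had LFCs of -0.88 in LEC (SE 0.13, adjusted p 1.3e-07) and -0.54 in MEC (SE 0.13, adjusted p 0.00041), so this receptor was highest in MEC LDeep and lowest in LEC LII. Unc5a had LFCs of -0.37 in LEC (adjusted p 0.018) and -0.54 in MEC (adjusted p 0.00058), and in LEC it was no longer called without LEC LDeep P23 replicate 2 (-0.26), LEC LII P23 replicate 2 (-0.33), or LEC LII P23 replicate 3 (-0.33). Epha5 had an LFC of -0.53 in LEC (SE 0.10, adjusted p 1.0e-05) and -0.21 in MEC (SE 0.10, adjusted p 0.073), and the difference between regions was 0.32 (SE 0.14, adjusted p 0.30). Slit2 was called in LEC with an LFC of -0.39 (SE 0.11, adjusted p 0.0045), and without LEC LDeep P23 replicate 2 it was -0.29 (adjusted p 0.056).

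The difference between layers depended on the region for 3 members, against 1.25% of all genes tested. Dcc was higher in LII in MEC, ranging from 6.32 to 7.33 log2 CPM in MEC LII (median 6.75) and from 5.42 to 6.85 in MEC LDeep (median 6.12), without overlap at 3 of 4 ages. In LEC the layers overlapped at every age, from 5.44 to 6.55 in LII and from 5.44 to 6.42 in LDeep. The LFC between layers was 0.73 in MEC (SE 0.08) and 0.10 in LEC (SE 0.08), and their difference was 0.63 (SE 0.12, adjusted p 0.00081). At P45 the MEC LII libraries read 6.90, 7.04, 6.70, and 7.33 and the MEC LDeep libraries 6.12, 6.43, 5.94, and 6.18. All 4 LII values lay above all 4 LDeep values at this age.

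Epha4 had an LFC between layers of 0.73 in MEC (SE 0.14, adjusted p 2.6e-05) and -0.04 in LEC (SE 0.14, adjusted p 0.83), which differed by 0.77 (SE 0.20, adjusted p 0.029). That difference was no longer called without any 1 of 8 libraries (0.70 to 0.76, adjusted p 0.053 to 0.083). Efna1, an ephrin-A, went the other way, with -0.47 in MEC (SE 0.12, adjusted p 0.0016) and 0.27 in LEC (SE 0.13, adjusted p 0.099), a difference of -0.74 (SE 0.18, adjusted p 0.019). Its level was 2.10 to 3.64 in MEC LDeep (median 3.02), above the medians of 2.53 in MEC LII, 2.58 in LEC LII, and 2.26 in LEC LDeep. In LDeep the LFC of Efna1 between regions was 0.81 (SE 0.13, adjusted p 6.0e-06), with no overlap at 3 of 4 ages. Efna1 held 14 to 107 counts in a library.

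Ntng2 had an LFC between layers of 1.09 in MEC (SE 0.26, adjusted p 0.00065) and -0.06 in LEC (SE 0.26, adjusted p 0.88). The LII libraries of Ntng2 at P9 read 3.87, 4.57, 3.91, and 4.11 and the LDeep libraries 1.49, 2.20, 2.38, and 1.22, so the groups lay apart by more than their ranges. At P2 the LII libraries (1.30 to 4.78) and the LDeep libraries (3.94 to 5.25) overlapped, with MEC LII replicate 1 at 1.30 and the other 4 LII libraries at 4.16 to 4.78. With any 1 library left out, the LFC between layers in MEC was 1.02 to 1.18. The difference between regions was 1.15 (SE 0.37, adjusted p 0.12) and was not called. Ntn1, the netrin that binds Dcc, had an LFC of 0.87 in MEC (SE 0.35, adjusted p 0.043). The 5 MEC LII P2 libraries read 4.13, 0.90, 6.52, 1.64, and 0.83, the highest being replicate 3. Without replicate 3 the LFC was 0.37 (adjusted p 0.30), without the 4 libraries on the far side of the second component it was -0.083 (adjusted p 0.81), and the call was lost without any of 18 of the 64 libraries.

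**Figure D5:**
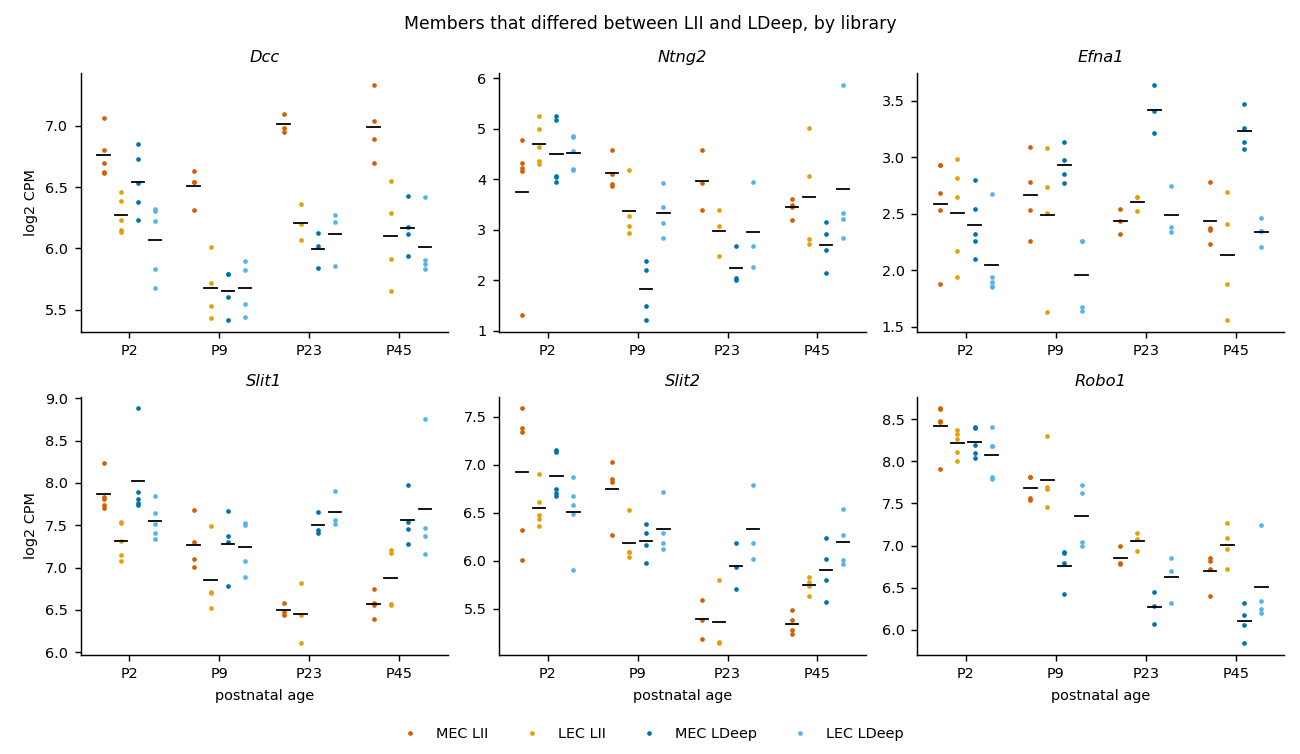
Level in log2 CPM of 6 members in every library, by postnatal age, region, and layer. Points are libraries and short lines are group means. MEC LII points of Dcc lie above the other groups from P9, MEC LDeep points of Efna1 are highest from P23, and MEC LII points of Slit1 and Slit2 are lower at P23 and P45 than at P2 and P9.

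At single ages, with regions weighted equally, 4 members were called between layers at P2 (2 higher in LII and 2 lower) against 19.2% of all genes. With the replicate number as a block the count at P2 was 7 (2 higher and 5 lower). It was 8 without MEC LDeep P2 replicate 1, a library with 159 counts of Lum, and 7 without LEC LII P2 replicate 5. At P9, 12 were called (8 higher in LII and 4 lower) against 33.0% of all genes. At P23, 13 were called (5 higher in LII and 8 lower) against 25.9%, and at P45, 14 (6 higher and 8 lower) against 26.4%. Epha2 was called as higher in LII at each age, with LFCs from 0.97 at P2 to 1.77 at P45.

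The change with age depended on the layer for 6 members, against 8.80% of all genes. In LII, older libraries lay below younger ones by means of log2 CPM for Slit1 (differences of -1.03 in MEC and -0.42 in LEC) and Slit2 (-1.47 and -0.82), while in LDeep the differences were -0.12 and 0.28 for Slit1 and -0.62 and -0.15 for Slit2. The LFC of Slit1 between layers was -0.22 (SE 0.15) at P2 and -0.19 (SE 0.17) at P9, neither of them called, and -1.10 (SE 0.20) at P23 and -0.97 (SE 0.17) at P45. In MEC LII, Slit1 read 7.10, 7.30, 7.0, and 7.68 at P9 and 6.56, 6.58, 6.39, and 6.75 at P45, without overlap. In MEC LDeep it read 7.66, 7.38, 6.78, and 7.30 at P9 and 7.28, 7.54, 7.45, and 7.97 at P45, with overlap. The change with age in LII less that in LDeep was -0.83 for Slit1 (SE 0.18, adjusted p 0.00084) and -0.80 for Slit2 (SE 0.16, adjusted p 0.00038). For Efna1 it was -0.76 (SE 0.18, adjusted p 0.0029) and for Efnb3 -0.43 (SE 0.11, adjusted p 0.0071). Efnb1 (0.45, SE 0.14, adjusted p 0.033) and Robo3 (-1.82, SE 0.57, adjusted p 0.033) were also called, Robo3 at few counts. The call of Efnb1 was lost without any 1 of 16 libraries and that of Robo3 without any 1 of 7. Without the library labelled MEC LII P2 replicate 1, 10 members were called.

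The change with age depended on the region for 2 members (5.88% of those tested), against 4.38% of all genes. The count was 5 with DESeq2, 5 without the 4 far-side libraries, 4 with the replicate block, and 2 to 4 with 1 library left out. Efnb3 fell more in MEC, where the older libraries lay 2.44 below the younger in LII and 1.81 in LDeep by means of log2 CPM, against 1.46 and 1.26 in LEC, and the difference was -0.77 (SE 0.11, adjusted p 4.3e-06). For Slit2 the difference was -0.60 (SE 0.16, adjusted p 0.018). The Efnb3 libraries of MEC LII at P23 read 5.12, 5.20, and 5.41 and those of LEC LII 6.39, 6.21, and 6.47, so the regions lay apart at P23, while at P2 they overlapped.

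Between the layers, 13 of the 42 other pathway genes were called in MEC (4 higher in LII and 9 lower, 31.0% against 40.8% of all genes) and 20 in LEC (5 higher and 15 lower, 47.6% against 38.6%). Ngef, the exchange factor ephexin that Epha4 uses, had LFCs of -1.08 in MEC (SE 0.13) and -0.52 in LEC (SE 0.13). Dock1, an exchange factor that acts after Dcc, was higher in LII in both regions, with 0.62 (SE 0.09) and 0.51 (SE 0.09).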

How the data were processed

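Total RNA was sequenced from 64 dissected samples of rat MEC and LEC. The deposited values were counts of read pairs per gene, which the authors made with bcl2fastq 1.8.4, Trimmomatic 0.33, STAR 2.4.0, and featureCounts (Subread 1.4.6-p1), strand-specifically, on RefSeq exons of rn6, without normalization. A pair was counted for every gene it overlapped. Of the members, Epha1 overlaps another gene, Zyx, on the opposite strand.

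Counts were tested in R 4.3.3 with edgeR 4.0.16 (TMM scaling, filterByExpr, quasi-likelihood test), with 1 mean for each of 16 groups, and p-values were BH adjusted over 12521 genes with a threshold of 0.05. The SE was taken from the LFC and its F statistic. Log2 CPM used a prior count of 2. A single count stood for 0.0874 to 0.257 CPM. No replicate pair was identical (100 pairs within groups, chi-square per degree of freedom 3.08 or more). The test was checked on simulated counts.

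Members were named by role, with values for up to 6 called members in each direction of each main comparison, those with the largest absolute LFC and a mean of at least 1 CPM in a group, and for every member called in an interaction. Members and lists were chosen with earlier results of these data known. Alternatives were DESeq2 1.42.0, limma 3.58.1 (voom), RLE scaling, no filter, fits within 1 region, summed libraries, a replicate block, and leaving out libraries. Leaving out the 4 far-side libraries was chosen after seeing the data.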

Additional observations from a re-analysis of the deposited data

Results flagged for a closer look

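The following values are given because the effect of 1 factor differed between groups in edgeR's test of the difference itself. The layer difference (LII over LDeep) was larger in MEC than in LEC by 0.63 for Dcc and 0.77 for Epha4, and for Efna1 it was lower in MEC, by -0.74. The change with age (P23/P45 over P2/P9) in LII less that in LDeep was -1.82 for Robo3, -0.83 for Slit1, -0.80 for Slit2, -0.76 for Efna1, -0.43 for Efnb3, and 0.45 for Efnb1. The change with age in MEC less that in LEC was -0.77 for Efnb3 and -0.60 for Slit2. All are differences of log2 fold changes.

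Single libraries lay far from the rest of their group in 11 of 144 tests by Dixon's criterion (12 members in 12 groups of 4 or 5 libraries), of which chance gives about 1 in 20. Levels are in log2 CPM. In MEC LDeep P2 replicate 4, Ephb2 was at 7.73 (nearest library 6.97) and Slit1 at 8.88 (nearest 7.90), and this library was the highest of its group for 20 of 35 members. In LEC LDeep P45 replicate 4, Dcc was at 6.42 (nearest 5.91). In the library labelled MEC LII P2 replicate 1, on the far side of the second component, Slit1 was at 8.24 (nearest 7.83). Efnb3 was at 4.89 in MEC LII P45 replicate 4 (nearest 5.56), which lay at the border of that component.

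In the other 6, Efna1 was at 2.67 in LEC LDeep P2 replicate 3 (nearest 1.94), Efnb1 at 6.45 in LEC LII P2 replicate 5 (nearest 5.98), and Ephb1 at 6.05 in MEC LII P9 replicate 1 (nearest 6.47). Ephb6 was at 7.20 in LEC LDeep P2 replicate 2 (nearest 6.51), Slit2 at 6.53 in LEC LII P9 replicate 4 (nearest 6.09), and Unc5d at 3.92 in MEC LDeep P45 replicate 1 (nearest 4.67).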

How the results depend on the processing

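Of 96 counts of members called under other settings, 87 stayed within 1.5 times the value reported, as did 930 of 960 counts with 1 library left out. The count from P23 to P45 was 1 with DESeq2, 1 with limma voom, and 2 without the 4 far-side libraries. The layer count at P2 was 8 and the count for age by layer 11 without those libraries, and the count for age by region was 5 with DESeq2 and 5 without those libraries. With 1 library left out, counts ranged from 0 to 1 from P23 to P45, from 3 to 8 for layer at P2, from 5 to 10 for age by layer (10 without the library labelled MEC LII P2 replicate 1), and from 2 to 4 for age by region. Of 4724 refitted LFCs of named results, 4648 kept their direction and their side of the threshold, and 1 reversed: Ntn1 between layers in MEC, at -0.083 without the 4 libraries.

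Limma voom did not call Efna4 (0.40) or Ntn1 (0.37) between layers in MEC, Unc5b (0.32) or Efnb1 (0.24) in LEC, Ntng2 between regions in LDeep (-0.77), or Efnb1 for age by layer (0.31). Without the filter on low counts Efnb1 for age by layer (0.42) was not called, and with the MEC samples alone Ntn1 between layers (0.87) was not called. The cause was not tested. With 1 library left out, 67 of 4288 refits lost a call, in 10 results, among them Epha4 for layer by region (8 libraries, 0.70 to 0.76), Robo3 (7) and Efnb1 (16) for age by layer, and Efnb1 between layers in LEC (6).

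Replicate numbers were shared between groups. The study gives numbers that mark LII and LDeep of the same animal for its miRNA samples, and for these libraries the labels do not say. Libraries with the same age and number correlated by 0.134 on average (-0.259 to 0.554, 55 of 96 pairs over 0.1). Those of the same age with another number correlated by -0.043 (-0.575 to 0.548, 59 of 300 pairs over 0.1). Of the 64 libraries, 42 correlated best with their own number. The main fit did not use the numbers. With a replicate block, the count was 7 for layer at P2 and 4 for age by region, and 67 of 67 named results kept their call. Few counts limit Epha1, Ntn5, Robo3, Efna4, and Efna5.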
